A study of Mus musculus with 3 samples.

Results

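The 7 genes described here (Ptgs1, Ptgs2, Ptges, Ptgis, Ptgds, Hpgd and Ptger4) make, remove or sense prostaglandins, and were taken by their symbols from the 51912 genes counted in lymph node (LN) stromal cells. All 7 symbols were found, 1 row each. Their levels were compared between 5 stromal types of the B cell follicle and its surroundings, each set apart by the raw UMIs (unique molecular identifiers, which count captured RNA molecules) of 1 gene. Follicular dendritic cells (FDC) had at least 2 UMIs of Cr2, marginal reticular cells (MRC) of Madcam1, interfollicular reticular cells (IFRC) of Tnfsf11, T-B border reticular cells (TBRC) of Fmod and medullary reticular cells (MedRC) of Inmt. Counts of other gate genes were limited so that a barcode, which stands for 1 captured cell, fell in 1 gate at most. Not every other gate gene was limited. Madcam1 and Tnfsf11 were left free in the FDC gate and Tnfsf11 in the MRC gate, so these gates can share gate genes.

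Prostaglandins are short-lived lipid signals made from arachidonic acid, which phospholipases free from membranes. The cyclooxygenases Ptgs1 and Ptgs2 turn it into prostaglandin H2, from which Ptges, Ptgis and Ptgds make prostaglandin E2 (PGE2), prostacyclin and prostaglandin D2. Hpgd starts the breakdown of PGE2, and Ptger4 (EP4) is one of its receptors. In LNs, fibroblastic stroma is known as a source of cyclooxygenase products that restrain T cells.

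The cells came from C57BL/6 mice carrying CXCL13-TdTomato, a transgene (Cxcl13-Cre/tdTomato) in which the Cxcl13 promoter drives Cre and TdTomato. Per the labels they were freed with collagenase, dispase and DNase and sorted as podoplanin+ CD31- CD45- TdTomato+, whereas the study's methods name no dispase and sort on podoplanin and TdTomato alone. They were sequenced with the 10x Genomics 3' chemistry. All mice had received antigen immune complexes (ICs). In the 2-IC group (2 libraries) ICs were given 7 days and 24 h before analysis, and in the 1-IC group (1 library) 24 h before. The study's methods describe 3 independent experiments, with LNs of 6 mice pooled for a condition, and do not say which experiment gave which library, and no unimmunized mice were analysed here. The short names of the 2-IC libraries differ in the time they give, so the grouping rests on their titles.

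The 3 libraries held 3766526 to 20607903 UMIs in 667 to 3790 barcodes. After filtering, 2243 of 5486 barcodes were kept, of which 144 fell in the FDC gate, 44 in the MRC gate, 132 in the IFRC gate, 91 in the TBRC gate, 685 in the MedRC gate and 1147 in none. The smallest sums were the MRC gate of 2-IC replicate 2 (7 barcodes) and the TBRC gate of the 1-IC library (10 barcodes). Gates at 2 UMIs are wide: 25 kept barcodes had exactly 2 UMIs of Cr2 and 81 had 1, and for Inmt the numbers were 182 and 298. Marker genes other than the gate gene were highest in their own gate for FDC, TBRC and MedRC. Those for MRC and IFRC summed to more in the FDC gate (42409 ± 14556 and 43744 ± 14235 CPM, SD, n = 3 libraries) than in their own (29053 ± 3952 and 21748 ± 7479 CPM). Ltf was at 0 in the MRC gate, and no gate showed more than 3 of the 4 MRC markers. The FDC, MRC and IFRC lists share Cxcl13, so their sums are not separate evidence. Tnfsf11, an MRC marker, went the other way. It stood at 632, 627 and 400 CPM in MRC (2-IC replicates 1 and 2, then 1-IC) and at 41.2, 7.67 and 23.6 CPM in FDC. MRC and IFRC here mean the gates only. The 2-IC libraries shared 76 barcode sequences, 15 of them kept in both and none gated in both. These had a median of 782.5 UMIs in 2-IC replicate 1 and of 32618.5 UMIs in 2-IC replicate 2. The 1-IC library shared 2 with 2-IC replicate 1 and 0 with 2-IC replicate 2. Why barcodes were shared was not tested, so the 2-IC libraries may not be fully separate.

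Levels are given as CPM, counts per 1e6 UMIs of all barcodes of a gate in a library, and are compared between gates for 1 gene, not between genes. Values in parentheses after a CPM are exact Poisson 95% intervals, which cover counting error only. Differences between gates were tested on the raw UMIs summed per library and gate (15 sums, n = 3 libraries) with edgeR's quasi-likelihood test, with the library as a block. p-values were Benjamini-Hochberg adjusted (padj) over all 6901 genes tested and all contrasts, with a threshold of 0.05. Ptgs2, Ptges, Hpgd and Ptger4 passed the filter on low counts, and Ptgs1, Ptgds and Ptgis did not. Of 20 contrasts of a tested gene in 1 gate against the mean of the other 4, 10 were called, beside 12.7% of all contrasts of all genes, and of 40 contrasts between pairs of gates 20 were called, beside 12.5%. Of these calls, 3 and 2 are of Hpgd in contrasts that include the MRC gate, where it had 0 UMIs. Of all genes, 9.10% were called between FDC and MRC, 18.6% between FDC and IFRC, 21.2% between FDC and TBRC and 27.1% between FDC and MedRC. The share was 5.04% between MRC and IFRC, 10.6% between MRC and TBRC, 13.7% between MRC and MedRC, 5.62% between IFRC and TBRC, 8.14% between IFRC and MedRC and 5.80% between TBRC and MedRC.

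Both cyclooxygenase genes were detected in these cells. Ptgs2, the inducible cyclooxygenase (chromosome 1, 150100031 to 150108227, plus strand, GRCm38), had 1079 UMIs in gated barcodes, and Ptgs1, the constitutive one, had 77. Both were counted by 3' tags, and these totals do not rank the levels of the 2 genes. In the FDC gate Ptgs2 stood at 35.6 (21.4 to 55.5) CPM in 2-IC replicate 1, at 19.2 (6.22 to 44.7) in 2-IC replicate 2 and at 3.93 (0.0995 to 21.9) in the 1-IC library. In the TBRC gate it stood at 129, 256 and 111 CPM, and in the MedRC gate at 126, 168 and 107 CPM, in the same order of libraries. No FDC sum reached the lowest TBRC or MedRC sum. The IFRC gate gave 113, 60.4 and 22.6 CPM, the lowest of which overlapped the FDC sums. The MRC gate gave 237, 63.4 and 0 CPM and was the least even between libraries.

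Ptgs2 was lower in the FDC gate than in the mean of the other 4 gates by a log2 fold change of -2.34 ± 0.43 (SE, padj = 0.000276, edgeR's quasi-likelihood test), in a gate where 10.1% of genes were called lower. This call held under each of the 18 alternative settings. Against single gates, Ptgs2 in the FDC gate was lower than in TBRC (log2 -2.92 ± 0.48, padj = 5.68e-05), MedRC (-2.64 ± 0.45, padj = 9.88e-05) and MRC (-2.21 ± 0.58, padj = 0.00917), by the same edgeR test. The MRC call was lost in 3 of 18 alternatives, among them without 2-IC replicate 1 (-1.45, edgeR, padj = 0.378), and in the 1-IC library the MRC sum lay below the FDC sum. The difference from IFRC was called at padj = 0.0482 by edgeR and lost its call in 11 of 18 alternatives. TBRC and MedRC, neighbours at the top of the order, differed by a log2 of 0.28 ± 0.31 (edgeR, padj = 0.689). MRC was not called different from IFRC, TBRC or MedRC (edgeR, padj = 0.485, 0.352 and 0.604).

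A few barcodes held much of the Ptgs2 of the TBRC gate. In 2-IC replicate 2, 1 barcode had 90 of its 159 UMIs, and in 2-IC replicate 1, 1 barcode had 31 of 52. In the FDC and MRC gates no barcode had more than 10. Ptgs2 was called higher in the TBRC gate than in the mean of the others (log2 1.31 ± 0.30, padj = 0.00244, edgeR; 7.20% of genes called higher). With UMIs counted only up to 10 per barcode, an alternative chosen after these counts were known, its TBRC levels became 76.8, 91.9 and 111 CPM and the fold change fell to 0.48 (edgeR, padj = 0.407). Without 2-IC replicate 2 it was 0.69 (edgeR, padj = 0.285), and the call was lost in 7 of 18 alternatives in all. The higher level in the MedRC gate (log2 0.97 ± 0.26, padj = 0.0100, edgeR; 11.9% of genes called higher) kept its call with the limit of 10 (0.89, padj = 0.0110), while the call was lost in 5 of 18 alternatives, among them without 2-IC replicate 2 (0.76, padj = 0.0588) or the 1-IC library (0.70, padj = 0.0852). The plot of Ptgs2 with and without that limit shows the TBRC bars moving to the height of the MedRC bars, and the FDC bars staying low.

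**Figure D1:**
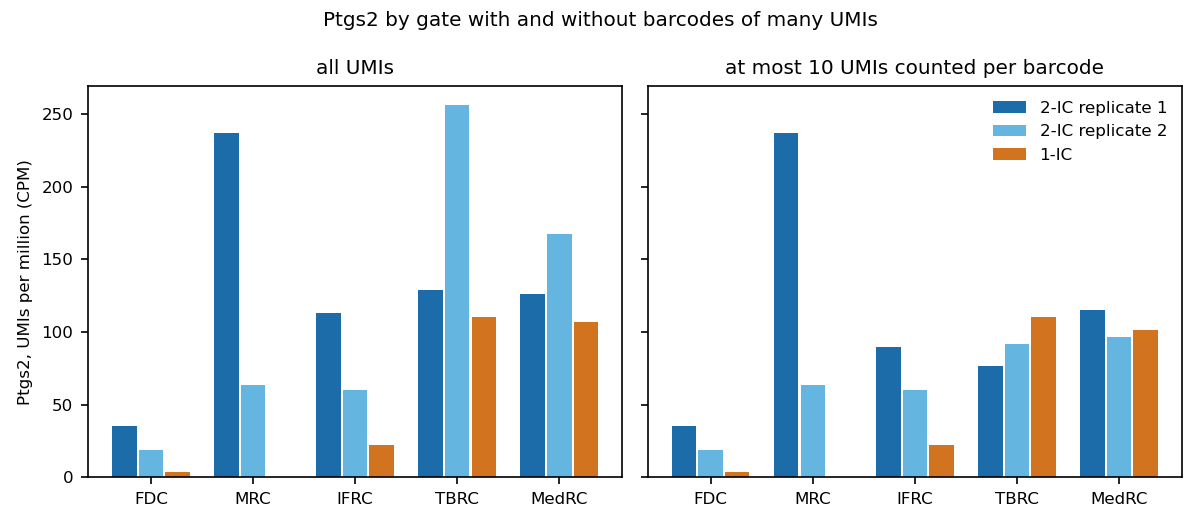
Ptgs2 level (bars, CPM, axis from 0) in each gate and library, on the left from all UMIs and on the right with at most 10 UMIs counted per barcode. The TBRC bar of 2-IC replicate 2 falls from 256 to 91.9 CPM, and the FDC bars stay at 35.6, 19.2 and 3.93 CPM.

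As a share of barcodes, at least 1 UMI of Ptgs2 was found in 9 of 81, 3 of 24 and 1 of 39 FDC-gate barcodes of the 3 libraries, and in 115 of 488, 36 of 115 and 17 of 82 MedRC-gate barcodes. B cell barcodes, which should lack most stromal RNA, gave 9 of 429, 2 of 89 and 1 of 167. Their median depth was 3524, 5885 and 3141 UMIs, beside 4900, 14131 and 6376 UMIs in the MedRC gate and 5716, 9160 and 4822 UMIs in the FDC gate. After each barcode was thinned to 2000 UMIs, Ptgs2 was found in 2.74%, 4.17% and 0% of FDC-gate barcodes, in 13.1%, 16.1% and 12.5% of MedRC-gate barcodes and in 1.11%, 1.12% and 0% of B cell barcodes. The thinned FDC-gate shares rest on 2 of 73, 1 of 24 and 0 of 33 barcodes, too few to set them apart from those of the B cells, while the MedRC-gate shares stood above both in all 3 libraries. As a level, Ptgs2 in B cell barcodes was 4.19 (1.92 to 7.96), 2.72 (0.330 to 9.84) and 1.65 (0.0418 to 9.19) CPM. The FDC-gate level was higher in each library, with intervals that did not overlap in 2-IC replicate 1 and overlapped in the other two.

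Early response genes, a list of 12 such as Fos, Jun and Egr1 that are induced within minutes of stimulation, tissue digestion included, were lowest in the FDC gate and highest in the TBRC and MedRC gates, as Ptgs2 was. Their summed level was 9614 ± 752 CPM in the FDC gate, 13078 ± 4197 in MRC, 18213 ± 2031 in IFRC, 24237 ± 2217 in TBRC and 31136 ± 1080 in MedRC (SD, n = 3 libraries). The list includes Nr4a1, which the study used to name its MedRC clusters and which was also a marker in the check of the MedRC gate. Over the 15 sums, log2 CPM of Ptgs2 and of the list had a Pearson r of 0.82, a description over sums that share libraries and digestion. The same r with the list was 0.76 for Hpgd, -0.54 for Ptges and 0.07 for Ptger4. Within the MedRC gate the list was at 37327 CPM in barcodes with Ptgs2 and at 30199 in those without in 2-IC replicate 1, at 34075 and 27712 in 2-IC replicate 2, and at 31493 and 31268 in the 1-IC library. The barcodes with Ptgs2 were also deeper, with medians of 5821 against 4723, 16010 against 13686 and 7427 against 6084 UMIs. This order of the list did not hold in every gate. In the FDC gate it was lower with Ptgs2 in 2-IC replicate 2 (8446 against 10808.5 CPM, 3 barcodes with Ptgs2). The same held in the FDC gate of the 1-IC library (7631 against 8849 CPM, 1 barcode) and in its IFRC gate (10648 against 17108.5 CPM, 2 barcodes). In all other sums with Ptgs2 the list was higher with it. The part of early response in the levels of these genes was not tested.

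**Figure D2:**
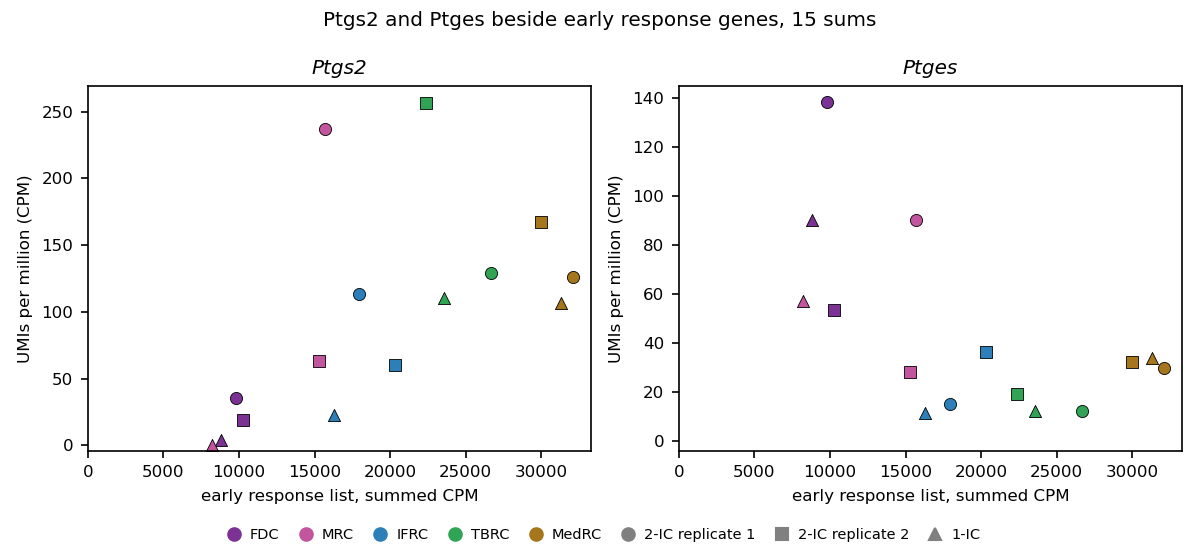
Level of Ptgs2 (left) and Ptges (right) in CPM against the summed CPM of 12 early response genes, 1 point per library and gate (15 sums; colour, gate; shape, library). Ptgs2 sums of the FDC gate sit at the lower left and those of MedRC at the right between 107 and 168 CPM, while the highest Ptges sums lie at the left.

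Stretches before transcription start sites are shown for Ptgs2 and Ptges because the extremes of their average levels were opposite. Ptgs2 was lowest in FDC and highest in TBRC, and Ptges highest in FDC and lowest in TBRC. For Ptgs2 the place of TBRC above MedRC rested on a few barcodes, as given above. The stretches are the 250 bases before the RefSeq start, 5' to 3' on the strand of the gene (GRCm38.p6), Ptgs2 at chr1:150099781-150100030 and Ptges at chr2:30903298-30903547. The Ptges stretch lies inside the span of the gene in GENCODE M21, 30889471 to 30929863 on the minus strand. The RefSeq start of Ptges is thus not the 5' end of that span. RefSeq entries were found for 6 of the 7 genes. Capitals mark the GC box, GGGCGG, read on both strands. The TATA box TATAAA, the E box CACGTG and the half-site of cyclic AMP elements, ACGTCA, were searched on both strands and are in neither stretch. Only these 250 bases were searched. Whether either gene has such an element outside them, after the RefSeq start or by another start, cannot be read from this.
Ptgs2: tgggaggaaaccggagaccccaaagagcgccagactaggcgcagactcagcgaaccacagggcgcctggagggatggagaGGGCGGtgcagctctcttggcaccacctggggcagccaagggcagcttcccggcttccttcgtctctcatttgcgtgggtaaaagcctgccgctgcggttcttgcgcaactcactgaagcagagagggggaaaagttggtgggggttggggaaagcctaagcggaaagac
Ptges: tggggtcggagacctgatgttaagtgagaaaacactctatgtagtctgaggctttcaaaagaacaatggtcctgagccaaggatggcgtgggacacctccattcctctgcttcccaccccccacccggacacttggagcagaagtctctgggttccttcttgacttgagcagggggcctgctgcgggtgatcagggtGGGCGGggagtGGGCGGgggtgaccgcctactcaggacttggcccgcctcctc
The Ptgs2 stretch holds 1 GC box, starting 170 bases before the start, and the Ptges stretch holds 2, starting 53 and 42 bases before it. Of 32851 RefSeq stretches of the same length, 32.7% hold the GC box on either strand, 12.4% the TATA box, 6.02% the E box and 6.47% the half-site. A match is a description of the letters and not a binding site.

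Ptgs1 (chromosome 2, 36230426 to 36252272, plus strand), known from platelets as well as from many tissues, was low throughout. Its UMIs numbered 3 in the FDC gate, 2 in MRC, 9 in IFRC, 10 in TBRC and 53 in MedRC over the 3 libraries, or 0 to 12.5 CPM in single sums. With so few UMIs it failed the filter, and with no filter its difference in the MedRC gate had a log2 fold change of 1.09 ± 0.44 (edgeR, padj = 0.168). B cell barcodes had 2 UMIs in all. Platelet markers (Pf4, Ppbp, Itga2b) summed to 7.58 ± 6.56 CPM in the FDC gate and to 28.8 to 53.0 CPM on average in the other gates, and their part in the Ptgs1 counts was not tested.

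Ptges, the inducible microsomal synthase that makes PGE2 from prostaglandin H2 (chromosome 2, 30889471 to 30929863, minus strand), was highest where Ptgs2 was lowest. In the FDC gate it stood at 139 (109 to 174) CPM in 2-IC replicate 1, 53.7 (29.3 to 90.0) in 2-IC replicate 2 and 90.4 (57.3 to 136) in the 1-IC library. The MRC gate followed at 90.3, 28.2 and 57.1 CPM. The MedRC gate was even between libraries at 29.8, 32.1 and 33.8 CPM, the IFRC gate gave 15.2, 36.2 and 11.3 CPM, and the TBRC gate was lowest on average at 12.4, 19.4 and 12.3 CPM. All 3 FDC sums lay above all IFRC, TBRC and MedRC sums.

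Ptges was higher in the FDC gate than in the mean of the others by a log2 of 1.84 ± 0.27 (edgeR's quasi-likelihood test, padj = 8.98e-06), where 12.0% of genes were called higher, and lower in the TBRC gate by -1.41 ± 0.40 (padj = 0.0161; 3.87% called lower). Between pairs, FDC exceeded TBRC by 2.60 ± 0.41 (edgeR, padj = 3.63e-05), IFRC by 2.28 ± 0.37 (padj = 5.51e-05) and MedRC by 1.63 ± 0.28 (padj = 0.000113). The last 2 lost their call without 2-IC replicate 1 (1.46 and 1.14, padj = 0.0768 and 0.0888), as did the TBRC call (-1.12, padj = 0.201). FDC and MRC, neighbours at the top of the order, differed by 0.86 ± 0.39 (edgeR, padj = 0.177). MRC was called above TBRC only (1.74 ± 0.54, edgeR, padj = 0.0311), and this call was lost in 7 of 17 alternatives. Gm13400 overlaps Ptges on the same strand in GENCODE M21, so reads from shared bases cannot be assigned to one of them.

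At least 1 UMI of Ptges was found in 35 of 81, 8 of 24 and 17 of 39 FDC-gate barcodes, and in 6 of 429, 1 of 89 and 2 of 167 B cell barcodes. Thinned to 2000 UMIs, the FDC-gate shares were 20.5%, 4.17% and 27.3%, and those of B cells 1.67%, 0% and 1.27%. In 2-IC replicate 2 the thinned share rests on 1 of 24 barcodes. Markers of macrophages, monocytes and dendritic cells stood at 385 ± 134 CPM in the FDC gate (5 to 8 of 8 genes seen), 329 ± 115 in MRC, 324 ± 206 in IFRC, 70.9 ± 18.0 in TBRC and 90.3 ± 48.7 in MedRC. Barcodes gated as myeloid held 1 UMI of Ptges in 12 barcodes, 0 in 5 and 0 in 11, which allows levels up to 71.8, 39.5 and 68.6 CPM (upper 95% Poisson bounds). The part of myeloid RNA in the level of Ptges was not tested.

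FDC-gate barcodes differed in nuclear RNA, read from Malat1, a nuclear noncoding RNA. In 49 of 144 barcodes Malat1 made up less than 1% of UMIs. Ptges was seen on both sides of that line, at 153, 39.5 and 78.0 CPM with at least 1% and at 83.2, 103 and 141 CPM below it. Ptger4 was at 49.3, 44.4 and 78.0 CPM with at least 1% and had only 1, 0 and 1 UMIs below it. Ptgs2 was at 42.3, 24.7 and 4.88 CPM with at least 1%, and had 1, 0 and 0 UMIs below it. Early response genes stood at 11685 ± 1182 CPM with at least 1% and at 1751 ± 2087 CPM below it. What separates these barcodes (RNA content, nuclear loss, another state) was not tested. The lower Ptgs2 and the higher Ptges of the FDC gate kept their calls with either set alone (edgeR; Ptgs2 -2.09, padj = 0.00102, and -4.65, padj = 0.00857; Ptges 1.80, padj = 5.59e-05, and 1.82, padj = 0.00476).

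**Figure D3:**
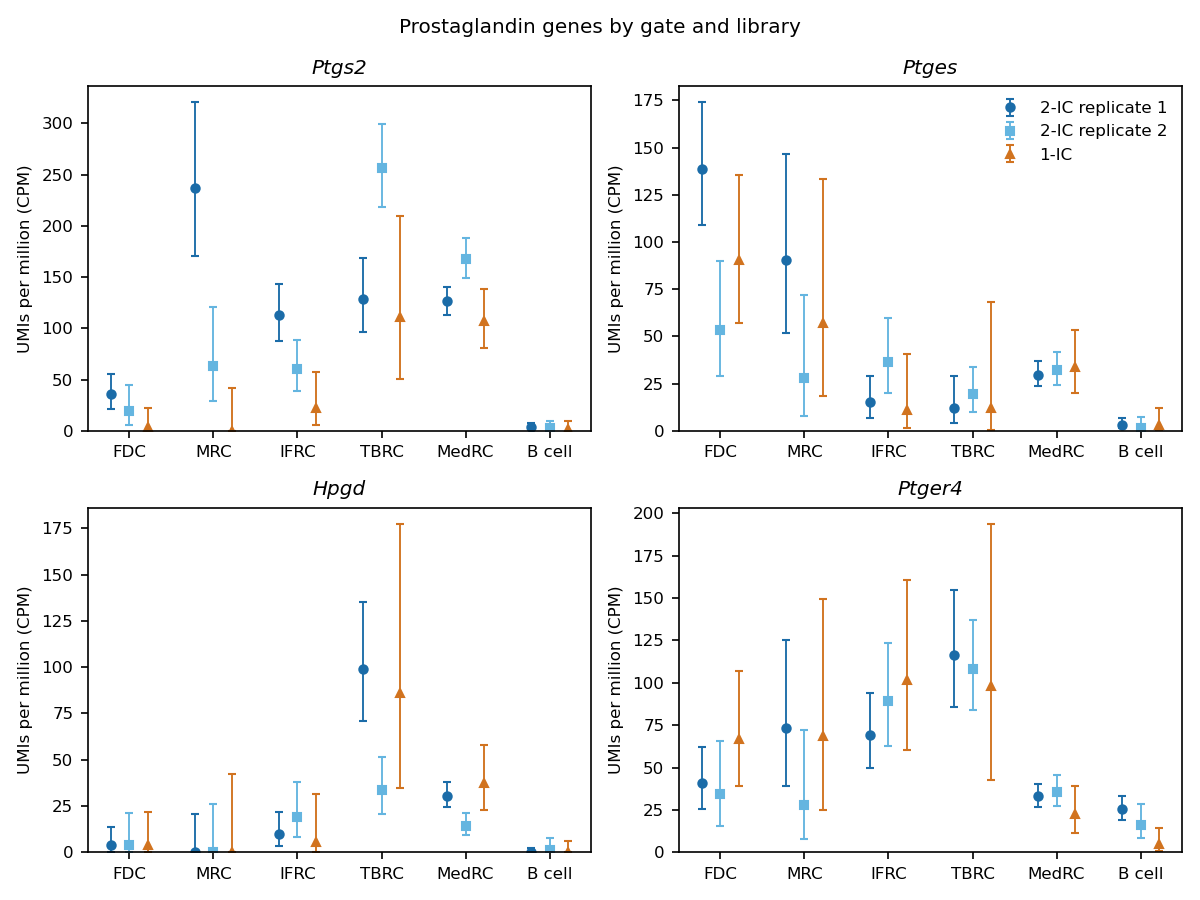
Levels (CPM, linear axes) of Ptgs2, Ptges, Hpgd and Ptger4 in the 5 stromal gates and in B cell barcodes, 1 symbol per library with its exact Poisson 95% interval. Ptges is highest in the FDC gate (53.7 to 139 CPM), Hpgd in TBRC (33.9 to 99.1 CPM) with MRC at 0, and Ptger4 falls to 22.5 to 35.7 CPM in MedRC.

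Ptgis and Ptgds, the other terminal synthases among the 7 genes, were at or near 0. Ptgis, the prostacyclin synthase (chromosome 2, 167191805 to 167240604, minus strand), had 0 UMIs in 2243 kept barcodes, which allows up to 0.134% of barcodes with a UMI. Ptgds, the lipocalin-type prostaglandin D2 synthase (chromosome 2, 25466709 to 25470046, minus strand), had 7 UMIs in 7 kept barcodes. Of these, 5 lay in the FDC gate of 2-IC replicate 1 and 1 in the FDC gate of the 1-IC library, 1 was in no gate, and none in 2-IC replicate 2. The FDC-gate level was thus 9.36 (3.04 to 21.8), 0 and 3.93 CPM, and 5 of the 6 FDC-gate UMIs were in barcodes with less than 1% Malat1. With no filter on low counts the FDC difference was not called (edgeR, padj = 0.130), so this concentration is a count of molecules and no tested difference.

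Hpgd, the 15-hydroxyprostaglandin dehydrogenase that inactivates PGE2 (chromosome 8, 56294585 to 56321043, plus strand), was highest in the TBRC gate. It stood there at 99.1 (70.8 to 135), 33.9 (20.96 to 51.8) and 86.1 (34.6 to 177) CPM. The MedRC gate had 30.5, 14.3 and 37.5 CPM, the IFRC gate 10.1, 19.3 and 5.64 CPM, and the FDC gate 3.74, 3.83 and 3.93 CPM from 4 UMIs. The MRC gate had 0 UMIs in all 3 libraries. The FDC and MRC sums lay below every other sum, and 2-IC replicate 2 had the lowest Hpgd of TBRC and MedRC.

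Since a fold against a gate at 0 is not defined, Hpgd is described by pairs of the other gates. Without 2-IC replicate 1 it failed the filter on low counts, so its calls were not checked there. TBRC exceeded MedRC by a log2 of 1.40 ± 0.32 (edgeR's quasi-likelihood test, padj = 0.00323), a call lost with DESeq2 (1.39), with no library block (1.33, padj = 0.0939) and with contaminant-gene barcodes kept (1.17, padj = 0.0605). IFRC was below TBRC by -2.53 ± 0.45 (edgeR, padj = 0.000211), and FDC below TBRC by -4.24 ± 0.59 (padj = 9.19e-06) and below MedRC by -2.84 ± 0.62 (padj = 0.00210). FDC and IFRC were not called different (log2 -1.71 ± 0.82, edgeR, padj = 0.213), nor were IFRC and MedRC (-1.13 ± 0.45, padj = 0.112). Pooled over libraries, Hpgd stood at 61.5 (47.8 to 78.0) CPM in TBRC and at 25.8 (21.5 to 30.6) CPM in MedRC. These levels are 8.34 and 3.49 times a floor of 3 counts over the 3 libraries in MRC (7.38 CPM). Both are ratios of point values to that floor and not lower bounds. The MRC gate held only 406590 UMIs in 44 barcodes, so its Hpgd may be up to 9.07 CPM (upper 95% Poisson bound). Gm45540 overlaps Hpgd on the same strand.

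Hpgd was found in 21 of 51, 9 of 30 and 6 of 10 TBRC-gate barcodes, whose median depth was 7431, 19612 and 8372 UMIs, and in 1 of 429, 1 of 89 and 0 of 167 B cell barcodes. Thinned to 2000 UMIs the TBRC shares were 15.7%, 3.33% and 30.0%, with 1 of 30 barcodes in 2-IC replicate 2. Over the 5 stromal gates, adventitial fibroblast markers (Pi16, Cd34, Dpp4, Dpt, Ly6a) moved with Hpgd. They stood at 45.5 ± 18.6 CPM in FDC and 42.8 ± 56.8 in MRC (SD, n = 3 libraries). They rose to 256 ± 141 CPM in IFRC, 776 ± 80.3 in MedRC and 1003 ± 200 in TBRC. In B cell barcodes they stood at 599 ± 289 CPM while Hpgd averaged 0.609 CPM, so the list is not particular to fibroblasts. In TBRC 3 to 4 of the 5 genes were seen, and the part of these markers in the level of Hpgd was not tested. Barcodes gated as myeloid held Hpgd at 12.9 (0.326 to 71.8), 10.7 (0.271 to 59.7) and 93.0 (30.2 to 217) CPM, from 7 UMIs, and in the 1-IC library this was above the TBRC level of 86.1 CPM, with overlapping intervals. The myeloid markers stood at 70.9 ± 18.0 CPM in TBRC, and the part of myeloid RNA in the level of Hpgd was not tested. The early response list also moved with Hpgd, as given above.

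Ptger4, the EP4 receptor through which PGE2 raises cyclic AMP (chromosome 15, 5206661 to 5244187, minus strand), was highest in the TBRC gate and lowest in the MedRC gate. TBRC had 116 (85.6 to 155), 108 (83.7 to 137) and 98.3 (42.5 to 194) CPM, and IFRC had 69.2, 89.4 and 102 CPM. MRC had 73.4, 28.2 and 68.5 CPM, and FDC 41.2, 34.5 and 66.8 CPM. MedRC had 33.0, 35.7 and 22.5 CPM. The TBRC and IFRC sums all lay above the MedRC sums.

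Ptger4 was higher in TBRC than in the mean of the other gates (log2 1.16 ± 0.21, padj = 0.000266, edgeR's quasi-likelihood test) and lower in MedRC (-0.999 ± 0.20, padj = 0.000704; 7.07% of genes called lower). The MedRC call was lost when the FDC gate was limited to barcodes with less than 1% Malat1 (-0.45, padj = 0.425). TBRC exceeded MedRC by 1.73 ± 0.24 (edgeR, padj = 5.51e-06). FDC was lower than TBRC (-1.27 ± 0.29, edgeR, padj = 0.00267), a call lost without 2-IC replicate 1 (-0.98, padj = 0.184). IFRC exceeded MedRC by 1.21 ± 0.25 (padj = 0.000876). TBRC and IFRC, neighbours at the top, were not called different (edgeR, padj = 0.221), nor were FDC and MedRC at the bottom (padj = 0.399). MRC was called lower than TBRC (-1.12 ± 0.35, edgeR, padj = 0.0319), a call lost in 10 of 17 alternatives.

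At least 1 UMI of Ptger4 was found in 26 of 51, 22 of 30 and 6 of 10 TBRC-gate barcodes and in 17 of 81, 8 of 24 and 10 of 39 FDC-gate barcodes. Thinned to 2000 UMIs, it was found in 8 of 51, 3 of 30 and 1 of 10 TBRC-gate barcodes, in 5 of 73, 2 of 24 and 5 of 33 FDC-gate barcodes and in 6 of 24, 0 of 7 and 1 of 13 MRC-gate barcodes. At equal depth the TBRC shares thus did not stand apart from those of FDC and MRC, and in the 1-IC library the FDC share was the higher.

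B cells themselves carried Ptger4, at 25.6, 16.3 and 4.95 CPM in B cell barcodes. B cell markers summed to 766 ± 365 CPM in FDC, 688 ± 397 in MRC, 729 ± 297 in IFRC, 240 ± 129 in TBRC and 426 ± 238 in MedRC, against 28238 ± 9161 CPM in B cell barcodes, with 2 to 4 of the 6 genes seen in each gate. Of the 6, Cd79a and Cd79b are contaminant genes, so kept barcodes have no UMI of them. B cell barcodes were chosen by these same genes. The contrast was thus partly set by the filters. The part of B cell RNA in the level of Ptger4 was not tested. Ttc33 and Gm15937 overlap Ptger4 on the other strand.

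**Figure D4:**
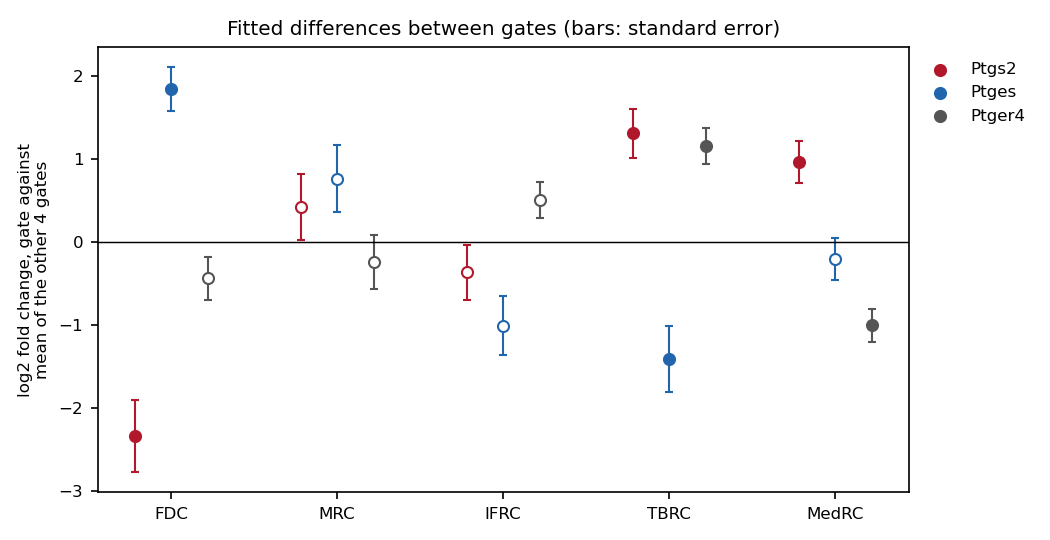
Log2 fold change of each gate against the mean of the other 4 for Ptgs2, Ptges and Ptger4 (bars, SE; filled points, adjusted p under 0.05 by edgeR's quasi-likelihood test). FDC shows Ptgs2 at -2.34 and Ptges at 1.84, and MedRC shows Ptgs2 at 0.97 and Ptger4 at -0.999; Hpgd is left out because its MRC sums are 0.

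A cyclooxygenase and Ptges, enzymes of successive steps, were found in the same barcode in every gate. By library, the share of barcodes with both was 6.17%, 4.17% and 2.56% in FDC, 25.0%, 14.3% and 0% in MRC, 3.61%, 18.5% and 0% in IFRC, 3.92%, 16.7% and 0% in TBRC and 4.30%, 12.2% and 4.88% in MedRC, in the order used above, and no order of the gates held in all 3 libraries. Over the 3 libraries, 15 of 144 FDC-gate barcodes had a cyclooxygenase UMI (Ptgs1 or Ptgs2), 60 had Ptges and 7 had both. In MRC the numbers were 15, 19 and 7 of 44, in IFRC 33, 21 and 8 of 132, in TBRC 26, 12 and 7 of 91, and in MedRC 201, 118 and 39 of 685. Hpgd and a cyclooxygenase met in 11 of 91 TBRC-gate barcodes and in 23 of 685 MedRC-gate barcodes, and in none of the FDC gate. Hpgd and Ptger4 met in 21 of 91 TBRC-gate barcodes, where Hpgd was found in 36 and Ptger4 in 54. In the FDC gate Hpgd was found in only 4 of 144 barcodes. Whether any pair met more often than the separate counts of its genes would give was not tested. At this depth a barcode without a UMI may still express the gene, so these are counts of molecules found together and not of cells that use both.

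The 2 IC groups were compared by values only, since the 1-IC group is 1 library and no test can be made. Ptgs2 was lower in the 1-IC library than in both 2-IC libraries in 5 of 5 gates, and the early response list in 3 of 5. In each gate the exact interval of the 1-IC library overlapped that of at least 1 2-IC library, and the same held for all 35 pairs of a gene and a gate. Ptges, Hpgd and Ptger4 showed no such run: the 1-IC library was below both 2-IC libraries in 2, 1 and 2 gates and above both in 1, 2 and 2 gates. With barcodes that carry contaminant genes kept, the interval of Ptgs2 in the 1-IC library lay below both others in MRC, IFRC and MedRC. The number of ICs and the library cannot be told apart.

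Of 58 other genes of the pathway, 55 were in the files and 28 passed the filter. Against the other gates, 3 were called higher and 3 lower in FDC, 2 and 0 in MRC, 1 and 1 in IFRC, 3 and 3 in TBRC, and 1 and 4 in MedRC, beside 12.0% and 10.1% of all genes in FDC, 3.65% and 3.01% in MRC, 3.39% and 1.51% in IFRC, 7.20% and 3.87% in TBRC, and 11.9% and 7.07% in MedRC. These were 21 of 140 contrasts, beside 12.7% of contrasts over all genes. The median log2 fold change of the list was -0.06 in FDC, 0.07 in MRC, -0.03 in IFRC, 0.12 in TBRC and -0.09 in MedRC, and over all genes tested it was between -0.01 and 0.03.

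Among enzymes of arachidonic acid release and remodelling (10 tested) was Pla2g7, a secreted phospholipase that degrades platelet-activating factor. It was highest on average in IFRC, at 35.4, 53.2 and 62.1 CPM, and was called higher there (log2 1.93 ± 0.34, padj = 0.000134, edgeR). It was also called higher in MRC (1.55 ± 0.49, edgeR, padj = 0.0330), at 33.9, 63.4 and 11.4 CPM. In FDC it stood at 3.74, 3.83 and 3.93 CPM. Pla2g15, a lysosomal phospholipase, was called higher in MedRC (1.31 ± 0.23, edgeR, padj = 0.000171), at 59.5, 51.1 and 45.0 CPM. IFRC was near it at 45.6, 50.7 and 33.9 CPM, and TBRC had 57.0, 25.8 and 24.6 CPM. The lowest gates were FDC at 11.2, 11.5 and 11.8 CPM and MRC at 11.3, 28.2 and 0 CPM. Of 5 synthases tested, Ptges3, the cytosolic PGE2 synthase and a cochaperone, averaged 153 to 193 CPM in the 5 gates, and Akr1b3, an aldose reductase that can make prostaglandin F, 48.1 to 77.8 CPM. Neither was called in any gate against the others by edgeR, and both are named after their values were seen. Fam213b, a prostamide and prostaglandin F synthase, was called higher in FDC (2.04 ± 0.24, edgeR, padj = 2.77e-07), with 116, 49.8 and 177 CPM. The other gates had 12.3 to 19.8 CPM in TBRC, 16.9 to 37.1 in IFRC, 20.2 to 45.0 in MedRC and 16.9 to 57.1 in MRC. In 2-IC replicate 2 the MRC level was 42.3 CPM, near the 49.8 CPM of FDC. Cbr1, a carbonyl reductase that acts on PGE2, was called lower in FDC (-1.07 ± 0.31, edgeR, padj = 0.0198) and higher in TBRC (0.80 ± 0.25, padj = 0.0337).

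Of 7 genes of breakdown and transport, Slco2a1, the prostaglandin uptake transporter, was called lower in MedRC (log2 -1.44 ± 0.24, edgeR, padj = 6.18e-05), at 42.1, 150 and 20.6 CPM. In every library its MedRC level was the lowest of the 5 gates, while the FDC gate had 223, 234 and 149 CPM. Slco3a1, a related transporter, was called lower in MedRC too (-0.72 ± 0.20, edgeR, padj = 0.0145). Of 2 receptor genes tested, Ptgfrn, which binds the prostaglandin F receptor, was called higher in TBRC (0.81 ± 0.24, edgeR, padj = 0.0228). Of the genes listed under the lipoxygenase and leukotriene branch, 4 were tested. Ephx2, the soluble epoxide hydrolase, was listed there but is not an enzyme of that branch. It was called higher in FDC (2.35 ± 0.20, edgeR, padj = 1.56e-09). It stood there at 148, 134 and 165 CPM, against 9.66 to 33.8 CPM in IFRC, TBRC and MedRC. The MRC gate lay between, at 56.4, 77.5 and 103 CPM. Ltc4s, the leukotriene C4 synthase, was called higher in TBRC (1.35 ± 0.24, edgeR, padj = 0.000155).

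Genes whose levels followed those of the 4 tested genes most closely over the 15 sums were found among 6196 genes with a mean of at least 20 CPM. They were Col5a2, Mboat7 and Sertad1 for Ptgs2 (Pearson r of log2 CPM 0.91, 0.90 and 0.90), Atp6v1b2, Plpp3 and Serpina12 for Ptges (0.85, 0.84 and 0.84), Matn2, Gm9780 and Dact1 for Hpgd (0.95, 0.94 and 0.94), and Ifi205, Fbl and Phgdh for Ptger4 (0.75, 0.73 and 0.73). Among themselves, Ptgs2 and Hpgd had an r of 0.55 and Ptgs2 and Ptges of -0.33. The sums share libraries and depth, and the values describe likeness only.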

How the data were processed

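Single-cell RNA was measured in 3 libraries. The authors aligned reads to GRCm38 and made UMI counts for every gene in every barcode by Cell Ranger (5.0.0 in the header of the files, while the study's methods give an older version) and deposited raw counts, with no normalization, for barcodes kept as cells. The study's methods speak of independent experiments with pooled mice, but neither they nor the labels tie an experiment to a library. With the library as a block, p-values measure how differences between gates vary from library to library. That variation may be partly technical.

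Barcodes with at least 200 genes, at most 10% mitochondrial UMIs and no UMI of 13 contaminant genes were kept, as in the study. Gates at 2 UMIs were as given in the report; B cell barcodes had at least 3 UMIs of Cd79a and Cd79b and at most 2 of 4 matrix genes. Raw counts were summed per library and gate (at least 5 barcodes) and fitted with edgeR 4.0.16 (R 4.3.3; TMM, filterByExpr by gate, library as a block). Alternatives included DESeq2 1.42.0. The library block is the design of the fit because all gates of a library came from the same suspension. Tested on simulated counts for the FDC contrast, edgeR called 105 genes, with 104 of the 138 changed by a log2 of 2 among them. It called 3 of 118 genes changed by a log2 of 1, and 0 with no change. In that simulation 2-fold differences were mostly missed. It gave all genes the same spread, had no differences between libraries except depth, and changed genes in the FDC gate only. The share of differences missed in the real counts therefore cannot be read from it. Scrublet in scanpy 1.11.5 called 9 of 5486 barcodes, none gated, so no doublets were removed. Whether the caller missed doublets was not tested. Named genes were the 7 genes; of the other pathway genes, per role the 2 called with the lowest adjusted p; and the 3 most alike per tested gene. The genes, gene lists and gates were chosen with earlier results of these data known. Shares and intervals cover counting error only, since PCR copies are collapsed but cells of a library share its source.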

Additional observations from a re-analysis of the deposited data

Results flagged for a closer look

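Ptger4 in the FDC gate against the other 4 gates had a log2 ratio of 0.06 in the 1-IC library and of -0.68 and -0.67 in the 2-IC libraries, so the sign in the 1-IC library differed from that in both. The 1-IC value is near 0 and rests on 17 UMIs in the FDC gate, whose level of 66.8 (38.9 to 107) CPM overlaps the intervals of both 2-IC libraries, and this difference between IC groups was not tested. Ptgis had 7 UMIs in 6 of the 3243 barcodes that the filters left out, against 0 in the kept barcodes. Of these 7 UMIs, 1 was in a myeloid barcode, 0 were in B cell barcodes and 0 in barcodes with a UMI of the endothelial genes Cldn5 or Egfl7.

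Barcodes gated as myeloid, which the stromal comparisons do not use, held 7 UMIs of Ptgs2, all in 1 barcode of the 1-IC library. They also held 7 UMIs of Hpgd, 5 of them in the 1-IC library, where the level was 93.0 (30.2 to 217) CPM. Ptger4 had 6 UMIs in myeloid barcodes.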

How the results depend on the processing

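Of 30 called differences of a member, 418 of 492 values under 18 alternatives kept direction and call, 74 kept direction and lost the call, and 0 turned. Values were missing where a gene failed the filter on low counts. With thinning, only Ptgs2 was tested. Hpgd had values in 14 of 18 alternatives. It was not tested without 2-IC replicate 1, with thinning, with MedRC at 10 UMIs of Inmt or with the FDC gate under 1% Malat1. In the counts that follow, a gene not tested counts as not called. Calls against the other gates (10) numbered 6 without 2-IC replicate 1, 1 with barcodes thinned to 2000 UMIs (1347 genes left to test) and 6 with MedRC at 10 UMIs of Inmt, and ranged from 6 to 10 with 1 library left out. Calls between pairs (20) numbered 13 with no replicate block, 3 thinned, 11 with MedRC at 10 UMIs of Inmt, and 9 to 20 with 1 library left out. Calls of the other pathway genes (21) numbered 6 with no replicate block, 1 thinned, 13 with the FDC gate under 1% Malat1, and 9 to 22 with 1 library left out, lowest without 2-IC replicate 1. Shares above the B cell share in all 3 libraries (21 of 35) numbered 13 thinned. Genes and gates in which the 1-IC library lay outside both 2-IC intervals (0) numbered 3 with contaminant-gene barcodes kept. Alternatives at Inmt 10, under 1% Malat1, for Scrublet scores, shared barcodes and a limit of 10 UMIs were chosen after seeing the data. The planned Scrublet alternative was not run, since no gated barcode was called. Beyond smaller sums when a library is left out or thinned, causes were not tested. The 44 MRC barcodes limit what can be said of that gate.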

Other observations

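In the 1147 kept barcodes that fell in no gate, Ptgs2 stood at 102 (92.3 to 113), 107 (94.3 to 120) and 68.6 (52.5 to 88.2) CPM, first for both 2-IC libraries and last for the 1-IC library, whose interval lay below both others. Ptges stood there at 26.3, 31.4 and 36.0 CPM, Hpgd at 34.3, 22.3 and 33.8 CPM and Ptger4 at 67.3, 59.6 and 68.6 CPM. Hpgd and Ptger4 in these barcodes thus lay between their TBRC and FDC levels in each library. These barcodes are a mixture: 19.9%, 47.3% and 13.8% of them had at least 2 UMIs of Inmt together with another gate gene. In 2-IC replicate 2, 1 barcode held 20 of the 57 Hpgd UMIs.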
